A study of Mus musculus with 6 samples.

Results

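The proteasome genes examined here were the rows of the deposited gene table whose symbol was Psma, Psmb, Psmc, Psmd, Psme, Psmf or Psmg followed by a digit, with the inducible catalytic subunits Psmb8, Psmb9 and Psmb10 and all names containing -ps left out. This gave 46 of 19436 genes. They hold the 31 constitutive subunits of the 26S particle listed under these symbols, 7 assembly chaperones, 4 activators, the inhibitor Psmf1, the tissue-restricted subunits Psma8 and Psmb11, and Psmc3ip, a meiotic recombination factor that shares the prefix without being a subunit. RNA came from C57BL/6 mouse fetal livers at E14.5, from cells sorted as erythroid precursors by medium CD71 (the transferrin receptor) and absent Ter119 (a surface protein of maturing red cells). One group carried the genotype -77-/-, the loss from both alleles of an enhancer that lies upstream of Gata2. The other group was wild type, labelled -77+/+ in the design, with the same strain, age and gate. Each group had 3 libraries, numbered here in the order of the sample records and made from 10 ng of total RNA. Nothing in the labels says whether the 3 came from separate embryos, so the p-values measure only the spread between these samples, which may be technical in part. Wild type replicate 2 differed from the other libraries in Xist, the RNA of the inactive X chromosome of females (41877 normalized reads, against 28.5 to 63.2), so the wild type libraries did not all come from 1 embryo. The comparison asks how transcript levels in the sorted cells differ when the enhancer is absent.

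The 26S proteasome degrades proteins that carry ubiquitin chains. Its barrel-shaped 20S core is built of outer rings of alpha subunits, which form the gate, and inner rings of beta subunits, of which Psmb5, Psmb6 and Psmb7 carry the constitutive proteolytic sites. The 19S regulatory particle caps the barrel: an ATPase ring unfolds substrates, the other base subunits bind ubiquitin, and the lid removes the ubiquitin chains before degradation. In maturing red cells, the ubiquitin-proteasome system takes part in clearing proteins as the cells lose their organelles, and in immune cells interferon brings in alternative catalytic subunits and activators.

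Values are normalized reads, that is, recovered whole reads divided by 1 size factor per library. Libraries held 16516338 to 20468899 reads. Each fold change is the mean log2(value + 1) in -77-/- libraries minus that in wild type libraries, from limma fitted across 15821 genes, with Benjamini-Hochberg adjustment over all of them and a threshold of 0.05. Gata2, the gene next to the deleted enhancer, had 74.2, 26.2 and 34.2 normalized reads in -77-/- libraries, against 128, 87.8 and 61.5 in wild type libraries, and its log2 fold change of -1.10 (SE 0.60) did not pass (adjusted p = 0.183). The cell type label was less well matched in -77-/- libraries. The 9 red cell precursor markers summed to between 2919 and 6667 normalized reads in -77-/- libraries, against 29734 to 32546 in wild type libraries, and 8 of the 9 fell. All 9 monocyte and macrophage markers with a row rose, and their sums ran from 25006 to 35070.2 in -77-/- libraries, against 1266 to 2318 in wild type libraries. Of 8 neutrophil lineage markers 4 rose (Mpo, Csf3r, Prtn3 and Ctsg) and 2 fell (Camp and Ngp). Their sums, 43048 to 47016 in -77-/- libraries and 10897 to 19690 in wild type libraries, were mostly Mpo. Mpo alone had 37033 to 40756 in -77-/- libraries and 8529 to 14748.5 in wild type libraries. The B lineage markers summed to between 1778 and 3293 in -77-/- libraries, against 728 to 911 in wild type libraries, with 5 of 8 higher. Among other cell types, 2 of 4 tested megakaryocyte markers fell, and none of the tested T lineage, mast cell and hepatocyte markers passed. Of 3 endothelial markers only Pecam1 rose, while Cdh5 and Kdr, with log2 fold changes of 0.18 and 0.16, did not pass. Over all tested genes 15.2% fell and 16.9% rose. Gp1bb, a platelet surface protein, was at 0 in all -77-/- libraries and in wild type replicates 2 and 3, and no other marker was at 0 throughout a genotype. The part of this marker difference in the proteasome values below was not tested. In such bulk samples, fewer cells of a type and less RNA per cell cannot be told apart.

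Most proteasome genes had a log2 fold change below 0 in -77-/- cells. The lowest values were those of the chaperones Psmd9 and Psmg2 and the lid subunit Psmd7, while the activator subunits Psme1 and Psme2 were higher. All 46 genes passed the filter on low values. Of these, 17 fell, 2 rose and 27 did not pass, whereas 15.2% of all tested genes fell and 16.9% rose. A log2 fold change below 0 was found in 40 of the 46, against 46.1% of all tested genes. In 24 genes every -77-/- library lay below every wild type library, which held for 21.4% of all tested genes, and in 2 genes every -77-/- library lay above, which held for 25.0%. The median log2 fold change was -0.37 over the 46 genes and 0.10 over all tested genes. With only genes of a mean of at least 50 in the higher genotype, these medians were -0.37 and -0.0045. The shares above cover tested genes of every level, and genes of a level similar to the 46 were not compared. With values centred on the median of the tested genes, 34 of the 46 fell and only Psme1 rose. Over all tested genes that scaling gave 3495 lower calls (22.1%) and 2176 higher calls (13.8%), against 2410 lower and 2681 higher without it. It moved the median log2 fold change over all tested genes from 0.10 to -0.11, so it lowered the fold changes in general. In the authors' deposited table, which holds their DESeq2 comparison, 18 of the 46 were lower and 2 higher at an adjusted p under 0.05, against 14.7% of its genes lower.

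**Figure D1:**
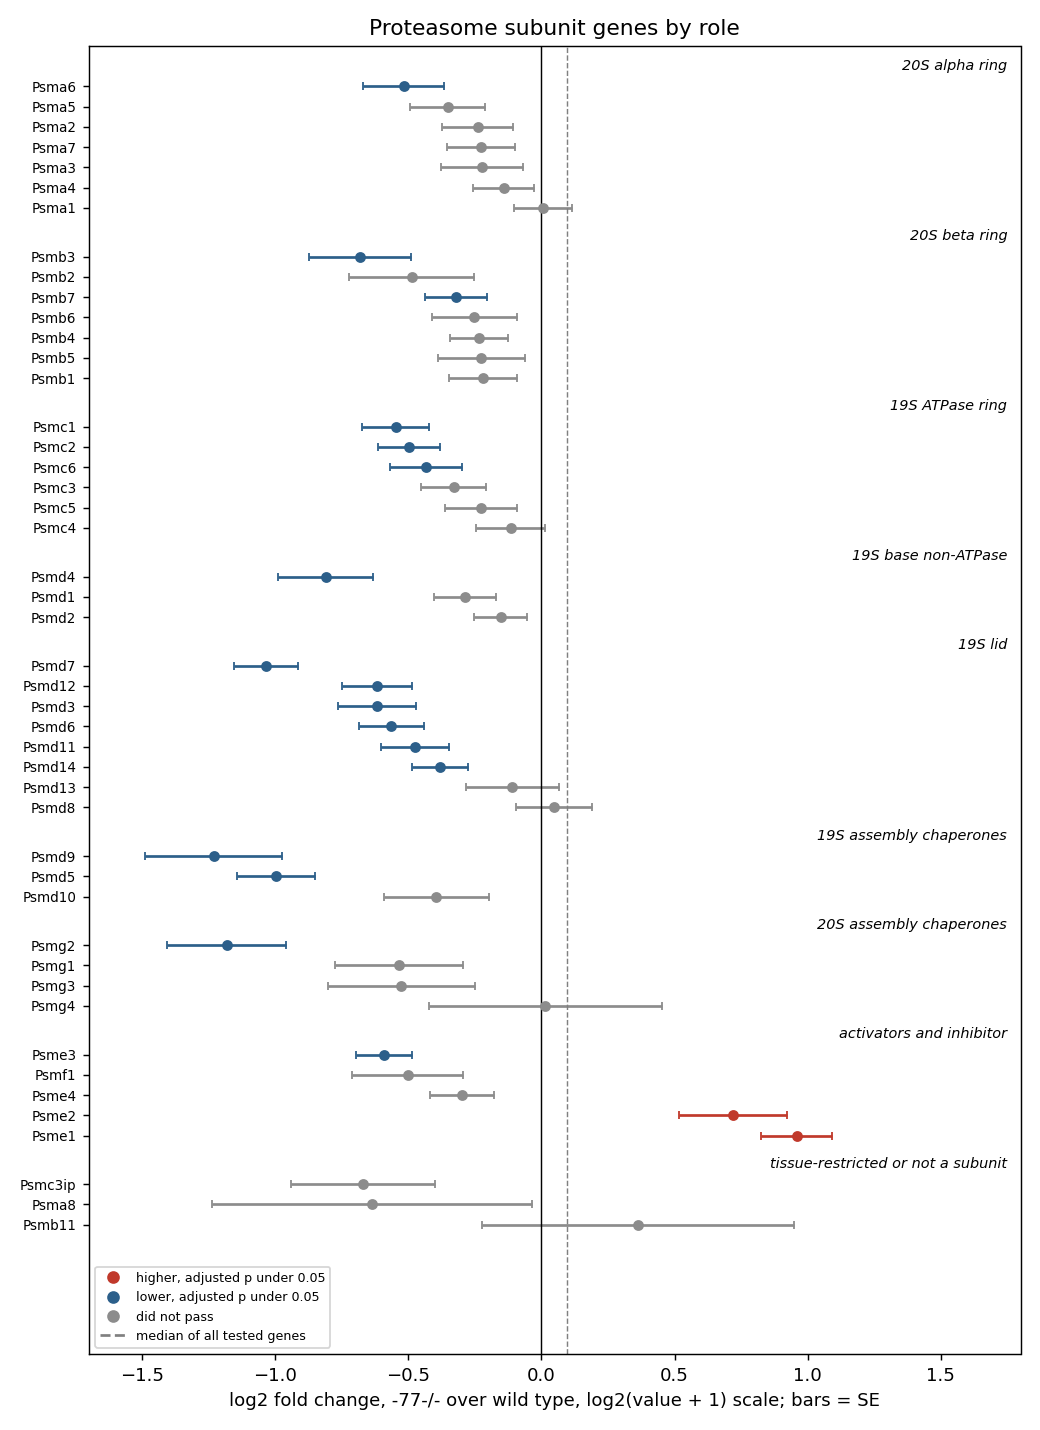
Log2 fold change of each proteasome gene (-77-/- over wild type, from log2(value + 1)), grouped by role, with bars for the standard error and colour for the call at an adjusted p of 0.05. The dashed line is the median of all tested genes. Of the 46 points 40 lie below 0, the chaperones Psmd9 and Psmg2 and the lid subunit Psmd7 lie lowest, and Psme1 and Psme2 alone were called higher.

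Within the 26S particle, 13 of the 31 subunits fell and none rose by limma, with 17 lower and 0 higher at an unadjusted p under 0.05, a threshold at which 19.5% of all tested genes were lower and 22.5% higher. The edgeR, limma-voom and DESeq2 tests on recovered reads each gave 14 lower and 0 higher of the 31, while over all genes the lower calls came to 14.9% with edgeR, 15.5% with limma-voom and 15.8% with DESeq2. The 20S core had 3 of 14 subunits lower, with a median log2 fold change of -0.24, and the 19S particle had 10 of 17 lower, with a median of -0.43. By the same limma test 15.2% of all tested genes were lower, and their median log2 fold change was 0.10. Whether the particles differ from each other was not tested.

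Among the 7 alpha subunits, which form the outer rings and the gate of the core, only Psma6 fell, against 15.2% of all tested genes. Psma6 had 2278, 1616 and 2092 normalized reads in -77-/- libraries, against 2672, 2478 and 3416 in wild type libraries, a log2 fold change of -0.52 (SE 0.15, adjusted p = 0.0166). The groups did not overlap, but the call was lost without -77-/- replicate 2 (adjusted p = 0.0820) and without wild type replicate 3 (adjusted p = 0.0712). The other 6 alpha subunits had log2 fold changes from -0.35 for Psma5 (adjusted p = 0.0709) to 0.01 for Psma1 (adjusted p = 0.974). Psma1 was close to level, with 3707, 3673 and 4338 normalized reads in -77-/- libraries and 3799.7, 3829 and 4014 in wild type libraries. Psma7, at -0.23, was the only other alpha subunit whose groups did not overlap. With centring on the median of tested genes 5 of the 7 fell, a scaling under which 22.1% of all tested genes fell.

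The beta rings hold the proteolytic chamber. Of their 7 constitutive subunits 2 fell, Psmb3 and Psmb7, against 15.2% of all tested genes. Psmb3, a structural subunit without a proteolytic site, had 784, 741 and 597 normalized reads in -77-/- libraries, against 898, 1092 and 1463 in wild type libraries. Its log2 fold change was -0.68 (SE 0.19, adjusted p = 0.0129), and the call was lost without -77-/- replicate 3 (adjusted p = 0.0705) and without wild type replicate 3 (adjusted p = 0.0523). The other structural subunits Psmb1, Psmb2 and Psmb4 had log2 fold changes of -0.22, -0.49 and -0.23 and did not pass, Psmb4 without overlap between groups (adjusted p = 0.118). Psmb2 passed when -77-/- replicate 1 was left out (adjusted p = 0.0072).

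Of the 3 constitutive catalytic subunits only Psmb7 passed, and in all 3 wild type replicate 1 was the lowest of its group and close to the -77-/- libraries. Psmb5, which carries the chymotrypsin-like site, had 1736, 1552 and 1942 normalized reads in -77-/- libraries, against 1549.9, 2223 and 2429.6 in wild type libraries. The groups overlapped, and the log2 fold change of -0.23 (SE 0.16) did not pass (adjusted p = 0.313). Psmb6, the caspase-like subunit, had 1462, 1661 and 1718 normalized reads in -77-/- libraries, against 1495, 1978 and 2385 in wild type libraries. Its groups also overlapped, with a log2 fold change of -0.25 (SE 0.16, adjusted p = 0.250). Psmb7, the trypsin-like subunit, had 4319, 3574 and 4125 normalized reads in -77-/- libraries, against 4397, 5246 and 5379 in wild type libraries, and fell by 0.32 on the log2 scale (SE 0.12, adjusted p = 0.0460). This last call was narrow: it was lost at a pseudocount of 0.1 (adjusted p = 0.0514), in limma without the robust option (adjusted p = 0.0569), and on leaving out each library except wild type replicate 1 (adjusted p from 0.0507 to 0.152). Without wild type replicate 1, Psmb5 and Psmb6 passed, both at an adjusted p of 0.048.

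Within a library, the inducible catalytic subunits can be set against the constitutive subunits whose places they take in interferon-exposed cells. Psmb8 over Psmb5 was 1.397, 1.26 and 0.922 in -77-/- libraries, against 0.0878, 0.0516 and 0.0164 in wild type libraries, a 27.9-fold difference. Fold differences of these ratios were taken between the mean log2 ratios of the groups, not between their plain means. Without wild type replicate 3 the Psmb8 over Psmb5 difference was 17.4-fold. Psmb9 over Psmb6, with both Psmb9 rows added, was 0.197, 0.185 and 0.177 in -77-/- libraries and 0.0132, 0.0126 and 0.00956 in wild type libraries, a 16.0-fold difference. Psmb10 over Psmb7 was 0.217, 0.193 and 0.205 in -77-/- libraries, against 0.0668, 0.0749 and 0.0727 in wild type libraries, a 2.87-fold difference. The groups were apart in all 3 ratios, and the two-sided exact permutation p was 0.10 for each, the smallest that 3 against 3 libraries allow (0.10 after adjustment over the 3 ratios). Psmb8 itself had 2424, 1947 and 1791 normalized reads in -77-/- libraries and 136, 115 and 39.9 in wild type libraries. Beside these ratios, 14 of 15 rows of interferon-induced genes rose, Psmb8 and a Psmb9 row among them, against 16.9% of all tested genes. The list summed to 8241 to 9609.7 in -77-/- libraries and 1184 to 1389 in wild type libraries. It holds Psmb8 and both Psmb9 rows, so its count and sums repeat in part the values of the ratios.

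**Figure D2:**
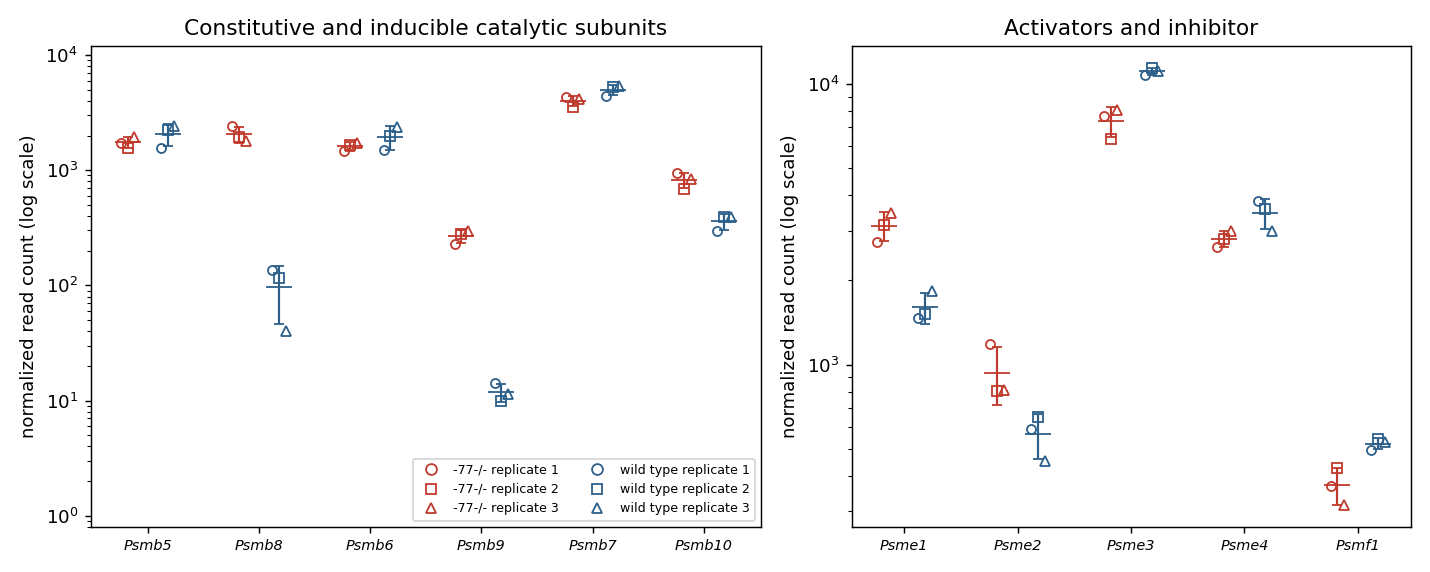
Normalized reads on log axes for the constitutive catalytic subunits beside their inducible counterparts (left) and for the activators and the inhibitor Psmf1 (right). Symbols are libraries, with -77-/- in red left of wild type in blue, and bars are the mean ± SD; Psmb9 is the row with more reads. The Psmb8 and Psmb9 groups lie far apart, the Psmb5 and Psmb6 groups overlap, and Psme3 lies below wild type while Psme1 and Psme2 lie above.

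The 6 ATPases form the ring that unfolds substrates and threads them into the core. Of these 3 fell, Psmc1, Psmc2 and Psmc6, against 15.2% of all tested genes. Psmc1 had 2536, 1929 and 2358 normalized reads in -77-/- libraries, against 3089, 3265 and 3571 in wild type libraries, with a log2 fold change of -0.55 (SE 0.13, adjusted p = 0.0036). Psmc2 had 3950.2, 3528 and 3759 normalized reads in -77-/- libraries, against 4507, 5527 and 5921 in wild type libraries, with a log2 fold change of -0.50 (SE 0.12, adjusted p = 0.0041). Neither gene overlapped between groups. Psmc6 had 2347, 2094 and 2152 normalized reads in -77-/- libraries, against 3038, 3504 and 2443 in wild type libraries, with a log2 fold change of -0.43 (SE 0.14, adjusted p = 0.0233). Wild type replicate 3 was the lowest of its group and close to -77-/- replicate 1. The Psmc6 call was lost without -77-/- replicate 2 or 3 or wild type replicate 1 or 2, with adjusted p from 0.0698 to 0.128. Psmc3 lay just outside the threshold at -0.33 (adjusted p = 0.0522), and passed in the authors' deposited table (adjusted p = 0.0467) and in 8 of 16 alternatives. Psmc4 and Psmc5 had -0.12 (adjusted p = 0.528) and -0.23 (adjusted p = 0.224), with overlapping groups.

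The base also holds 3 subunits without ATPase activity, of which Psmd4 fell, against 15.2% of all tested genes. Psmd4, a receptor for ubiquitin chains, had 1421.5, 820.5 and 1149 normalized reads in -77-/- libraries, against 1759, 2078 and 1983 in wild type libraries. The groups did not overlap, and the log2 fold change was -0.81 (SE 0.18, adjusted p = 0.0026). The large scaffold subunits Psmd1 and Psmd2 had log2 fold changes of -0.29 (adjusted p = 0.0733) and -0.15 (adjusted p = 0.264). Psmd1 passed without wild type replicate 1 (adjusted p = 0.0461).

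In the lid, 6 of 8 subunits fell, against 15.2% of all tested genes. With centring on the median of tested genes the lid count was the same, and 5 of 6 ATPases and all 3 other base subunits fell. Under that scaling 22.1% of all tested genes fell. Psmd7, a scaffold that pairs with the deubiquitinase Psmd14, had 2662, 2302 and 2830.2 normalized reads in -77-/- libraries, against 4838, 6051 and 5108 in wild type libraries. It averaged 2598 ± 269.8 normalized reads in -77-/- libraries and 5332 ± 637 in wild type libraries (SD, n = 3 each), 48.7% of the wild type mean, and fell by 1.04 on the log2 scale (SE 0.12, limma adjusted p = 9.8e-06). No other 26S subunit had a lower log2 fold change.

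Psmd14, the metalloprotease that cuts ubiquitin chains from substrates, had 3614, 3372 and 3670.3 normalized reads in -77-/- libraries, against 4274, 4911 and 4719 in wild type libraries. Its groups were apart and its log2 fold change was -0.38 (SE 0.10, adjusted p = 0.0110), lost without wild type replicate 2 (adjusted p = 0.0559). The other called lid subunits are helical scaffold proteins. Psmd12 had 2015, 1490.3 and 1897 normalized reads in -77-/- libraries, against 2766, 2731 and 2733 in wild type libraries (log2 fold change -0.62, SE 0.13, adjusted p = 0.0019). Its wild type libraries were nearly identical, with an SD of 19.6 around a mean of 2743. Psmd3 had 2677, 1871 and 2246 normalized reads in -77-/- libraries, against 3053, 3247 and 4096 in wild type libraries (log2 fold change -0.62, SE 0.15, adjusted p = 0.0046). Psmd6 had 1987, 1700.3 and 2078 normalized reads in -77-/- libraries, against 2604, 3057 and 2848 in wild type libraries (log2 fold change -0.56, SE 0.12, adjusted p = 0.0025). Psmd11 had 2537, 1942 and 2292 normalized reads in -77-/- libraries, against 3429, 2837 and 3121 in wild type libraries (log2 fold change -0.48, SE 0.13, adjusted p = 0.00999). Each of these 4 had groups that did not overlap, with -77-/- replicate 2 lowest. Psmd11 was no longer called without wild type replicate 1 (adjusted p = 0.0546).

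The lid subunits Psmd8 and Psmd13 were near level. Psmd8 had 1928, 1462 and 1713 normalized reads in -77-/- libraries, against 1434, 1763 and 1728 in wild type libraries, with a log2 fold change of 0.05 (adjusted p = 0.824). Psmd13 had 909, 878 and 651 normalized reads in -77-/- libraries, against 955, 780.3 and 874 in wild type libraries, with a log2 fold change of -0.11 (adjusted p = 0.670). The groups overlapped in both genes, and under centring on the median of tested genes the Psmd8 value turned to -0.15.

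**Figure D3:**
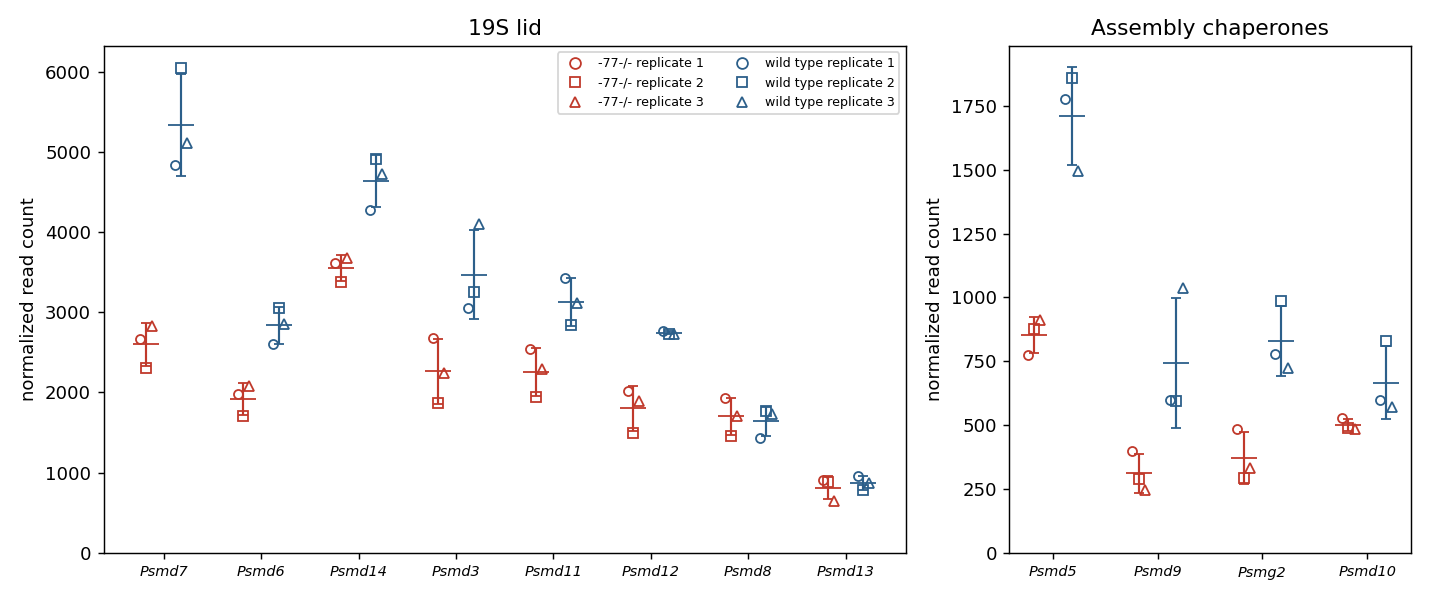
Normalized reads of the 8 lid subunits among the 46 genes (left) and 4 assembly chaperones (right). Symbols are libraries, with -77-/- in red left of wild type in blue, and bars are the mean ± SD. Psmd7, Psmd5, Psmd9 and Psmg2 have no overlap between groups and means of 41.8% to 49.9% of wild type, while Psmd8 and Psmd13 overlap.

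Dedicated chaperones build the particles and leave before they are mature. Of the 7 among the 46, 3 fell, against 15.2% of all tested genes. Psmd9 and Psmd5, chaperones of the 19S base, were among them. Psmd9 had 398, 288 and 248 normalized reads in -77-/- libraries, against 600.4, 594 and 1036 in wild type libraries, with a log2 fold change of -1.23 (SE 0.26, adjusted p = 0.0018). Wild type replicate 3 was well above the other two, and without it the log2 fold change was -0.97. Psmd5 had 776, 876 and 910.1 normalized reads in -77-/- libraries, against 1776, 1859.9 and 1494 in wild type libraries, with a log2 fold change of -0.998 (SE 0.15, adjusted p = 8.6e-05). Its mean was 49.9% of the wild type mean. Psmd10 (gankyrin), the remaining 19S chaperone, is X-linked and had 527, 489 and 485 normalized reads in -77-/- libraries, against 599, 830.2 and 572 in wild type libraries (log2 fold change -0.39, adjusted p = 0.145). Its groups did not overlap, and the highest value came from wild type replicate 2, the only library with high Xist. Without that library the log2 fold change of Psmd10 was -0.23 (adjusted p = 0.451).

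Psmg2 pairs with Psmg1 to seed the alpha ring, and it had 486, 295 and 330.4 normalized reads in -77-/- libraries, against 781, 985 and 722.5 in wild type libraries. The groups were well apart, at 370.3 ± 102 in -77-/- libraries and 829 ± 138 in wild type libraries, with a log2 fold change of -1.18 (SE 0.22, adjusted p = 8.2e-04). Its partner Psmg1 had a log2 fold change of -0.54 (adjusted p = 0.104) and Psmg3 had -0.53 (adjusted p = 0.167), both short of the threshold. Psmg4, which works with Psmg3, was level, at 106 ± 41.5 normalized reads in -77-/- libraries and 100.5 ± 11.8 in wild type libraries, with a log2 fold change of 0.02 (adjusted p = 0.982). Pomp, the maturation factor that joins the core later and was not among the 46, had 1627, 1469.9 and 1396 normalized reads in -77-/- libraries, against 1583, 1773 and 1275 in wild type libraries, a log2 fold change of -0.03.

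Alternative caps open the core without ATP. Psme1 and Psme2 together form the interferon-induced PA28 ring, and Psme3 forms a separate ring found mainly in the nucleus. The promoters of these 3 genes are shown because their transcripts moved in opposite directions; each covers 250 bases before to 50 after the RefSeq start site in GRCm38.p6, printed 5′ to 3′ on the gene's strand. Capitals mark the core of the interferon-stimulated response element, GAAA and GAAA with any 2 bases between them, on either strand. For Psme2 the farther upstream of its 2 start sites is shown.
Psme1, chr14:55578244-55578543, plus strand: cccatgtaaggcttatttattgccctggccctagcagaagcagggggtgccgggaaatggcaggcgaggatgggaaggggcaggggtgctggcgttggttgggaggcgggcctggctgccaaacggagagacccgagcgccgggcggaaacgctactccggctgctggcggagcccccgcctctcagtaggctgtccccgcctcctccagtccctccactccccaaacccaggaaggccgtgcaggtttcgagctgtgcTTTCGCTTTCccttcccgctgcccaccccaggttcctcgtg
Psme2, chr14:55591052-55591351, minus strand: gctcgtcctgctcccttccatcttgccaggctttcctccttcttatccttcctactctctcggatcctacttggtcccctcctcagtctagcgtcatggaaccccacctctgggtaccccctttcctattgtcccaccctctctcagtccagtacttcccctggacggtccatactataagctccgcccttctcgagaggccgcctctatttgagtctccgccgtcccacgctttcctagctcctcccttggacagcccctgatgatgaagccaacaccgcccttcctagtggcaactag
Psme3, chr11:101315963-101316262, plus strand: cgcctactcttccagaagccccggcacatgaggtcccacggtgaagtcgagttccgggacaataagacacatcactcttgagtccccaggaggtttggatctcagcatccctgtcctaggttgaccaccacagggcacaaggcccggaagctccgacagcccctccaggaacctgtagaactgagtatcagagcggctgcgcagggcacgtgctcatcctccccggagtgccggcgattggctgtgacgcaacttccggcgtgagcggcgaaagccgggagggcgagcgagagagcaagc
The window of Psme1 holds the motif once, on the opposite strand and just past the start site, and the other 2 windows hold none. The motif was in 3.44% of all promoters in the RefSeq table (1131 of 32851).

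Psme1 had 2738, 3145 and 3465 normalized reads in -77-/- libraries, against 1461, 1512 and 1835 in wild type libraries. At 3116 ± 364.5 in -77-/- libraries and 1602 ± 203 in wild type libraries (SD, n = 3 each), it rose by 0.96 on the log2 scale (SE 0.13, limma adjusted p = 5.4e-05), with no overlap. Psme2 had 1188, 805 and 814 normalized reads in -77-/- libraries, against 591, 649.6 and 452 in wild type libraries, with a log2 fold change of 0.72 (SE 0.20, adjusted p = 0.0132). This call depended on -77-/- replicate 1: without it the log2 fold change was 0.54 (adjusted p = 0.0773), and it was also lost with centring on the median of tested genes (adjusted p = 0.0690). The Psme2 level is uncertain because a processed copy, Psme2b-ps, could take or give reads. That row had 97.6, 284 and 254 normalized reads in -77-/- libraries and no reads in wild type libraries.

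Psme3 moved the other way. It had 7695, 6363 and 8089 normalized reads in -77-/- libraries, against 10714, 11348 and 11139 in wild type libraries, with a log2 fold change of -0.59 (SE 0.10, adjusted p = 4.4e-04). Within a library, Psme1 and Psme2 together over Psme3 came to 0.510, 0.621 and 0.529 in -77-/- libraries, against 0.192, 0.190 and 0.205 in wild type libraries, so the groups were far apart. Psme4 (PA200), an activator known from spermatogenesis and DNA repair, had a log2 fold change of -0.30 (adjusted p = 0.0711) and passed without wild type replicate 3 (adjusted p = 0.0172). The inhibitor Psmf1 had 371, 428 and 317 normalized reads in -77-/- libraries, against 498, 543 and 529.9 in wild type libraries. Its groups did not overlap, but the log2 fold change of -0.50 (SE 0.21) did not pass (adjusted p = 0.0797).

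The tissue-restricted subunits had few reads in both genotypes. Psma8, the alpha subunit of the testis, had 46.4 ± 15.2 normalized reads in -77-/- libraries and 73.1 ± 26.7 in wild type libraries, and Psmb11, the beta subunit of the thymus, had 93.4 ± 43.3 in -77-/- libraries and 72.5 ± 38.5 in wild type libraries. Neither passed (adjusted p = 0.447 for Psma8 and 0.670 for Psmb11). Psmc3ip had 323, 293 and 409.8 normalized reads in -77-/- libraries, against 360.3, 559.8 and 776 in wild type libraries, with overlapping groups and a log2 fold change of -0.67 (adjusted p = 0.0726).

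Adding up the subunits of each particle shows the size of the difference per library. The 14 core subunits summed to 33985, 29363 and 32304 normalized reads in -77-/- libraries, against 33902, 39158 and 41773 in wild type libraries, so -77-/- replicate 1 and wild type replicate 1 were level. The 17 subunits of the 19S particle summed to 48638, 40509 and 47136 in -77-/- libraries, against 55833, 64177 and 61995 in wild type libraries, with no overlap. The mean of the core sum in -77-/- libraries was 83.3% of the wild type mean, and that of the 19S sum was 74.9%. Among parts of the 19S particle, the lid stood at 68.6%, the ATPase ring at 76.5% and the other base subunits at 82.4%. In the core, the alpha ring stood at 85.2% and the beta ring at 81.2%. These sums were not tested. The 31 subunits together took 0.454%, 0.412% and 0.455% of all normalized reads in -77-/- libraries, against 0.482%, 0.560% and 0.551% in wild type libraries. The 19S sum over the core sum, which does not depend on scaling between libraries, was 1.43, 1.38 and 1.46 in -77-/- libraries, against 1.65, 1.64 and 1.48 in wild type libraries. The lid sum over the core sum was 0.539, 0.511 and 0.538 in -77-/- libraries, against 0.689, 0.648 and 0.604 in wild type libraries. Both ratios were lower in every -77-/- library, the first by a narrow margin against wild type replicate 3.

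**Figure D4:**
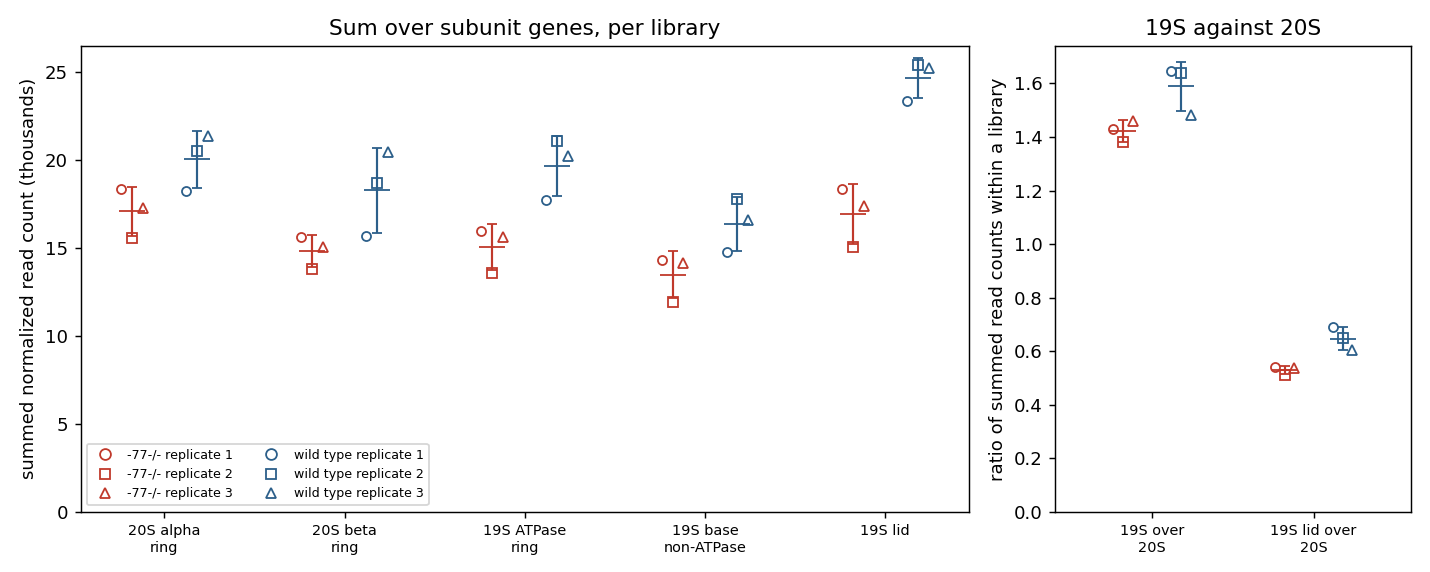
Left, summed normalized reads for the alpha and beta rings of the 20S core and the ATPase ring, other base subunits and lid of the 19S particle; right, the 19S and lid sums over the 20S sum within a library. Symbols are libraries, with -77-/- in red left of wild type in blue, and bars are the mean ± SD. The alpha ring sums overlap between genotypes, the lid sums do not, and the 19S over 20S ratio lies between 1.38 and 1.46 in -77-/- libraries and between 1.48 and 1.65 in wild type libraries.

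Within a genotype, most subunits shared the library with the lowest value. In -77-/- libraries, replicate 2 had the lowest value of its group for 26 of the 31 subunits, against 34.3% of all tested genes. Replicate 1 of that genotype had the highest value for 21 of the 31, against 38.7% of all tested genes. In wild type libraries, replicate 1 had the lowest value for 25 of the 31, against 29.9% of all tested genes. Among tested genes with a mean of at least 50, these shares were 39.0%, 40.6% and 31.4%. In -77-/- replicates 1, 2 and 3 the 31 subunits summed to 82622, 69872 and 79440 normalized reads. Red cell precursor markers came to 6667, 2919 and 4195 in these libraries, the same order. Monocyte and macrophage markers came to 25006, 35070.2 and 27693, the reverse order. In wild type replicates 1, 2 and 3 the 31 subunits summed to 89735, 103335 and 103767. In wild type libraries, replicate 1 had the highest red cell precursor sum, 32546 against 29787 in replicate 2 and 29734 in replicate 3, and a monocyte and macrophage sum of 1816 between 1266 in replicate 2 and 2318 in replicate 3. The part of these markers in the order of the libraries was not tested. The subunits had a median coefficient of variation of 10.7% in -77-/- libraries and 11.02% in wild type libraries. Over all tested genes the medians were 20.8% in -77-/- libraries and 26.5% in wild type libraries. The subunits had wild type means from 870 (Psmd13) to 7856 (Psmd1) normalized reads, whereas tested genes went down to a mean of 10. Genes of similar level were not compared. Per kilobase of the longest annotated transcript, mean levels within the core spanned 9.36-fold in -77-/- libraries and 9.97-fold in wild type libraries. Psma3 was lowest in both genotypes, at 369 normalized reads per kilobase in -77-/- libraries and 433 in wild type libraries. Psmb7 was highest, at 3453 in -77-/- libraries and 4317 in wild type libraries. The length used was 2846 bases for Psma3 and 1160 for Psmb7. Which transcripts the cells express was not examined, so these orders and ranges depend on the lengths chosen. In the 19S particle Psmd13 was lowest, at 408 in -77-/- libraries and 437 in wild type libraries, while the highest was Psmd14 at 2305 in -77-/- libraries and Psmd7 at 3373 in wild type libraries.

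In mammalian cells proteasome genes are raised together when the transcription factor Nfe2l1 binds antioxidant response elements in their promoters. Nfe2l1 itself had 1685, 1969.6 and 2349 normalized reads in -77-/- libraries, against 1762, 2029.5 and 2107 in wild type libraries, with a log2 fold change of 0.02 (adjusted p = 0.941), and its relative Nfe2l2 had -0.30 (adjusted p = 0.252). The element's core, TGACNNNGC on either strand, is in capitals in the promoters of Psmd9, the gene with the lowest fold change, and of the catalytic subunits Psmb5 and Psmb6, which did not pass. Each window is as above.
Psmd9, chr5:123227940-123228239, plus strand: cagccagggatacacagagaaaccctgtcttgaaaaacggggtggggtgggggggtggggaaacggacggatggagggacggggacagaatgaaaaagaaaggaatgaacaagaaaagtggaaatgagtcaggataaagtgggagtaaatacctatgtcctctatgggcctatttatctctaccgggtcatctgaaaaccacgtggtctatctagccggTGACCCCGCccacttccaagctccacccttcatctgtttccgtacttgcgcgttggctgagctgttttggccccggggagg
Psmb5, chr14:54617946-54618245, minus strand: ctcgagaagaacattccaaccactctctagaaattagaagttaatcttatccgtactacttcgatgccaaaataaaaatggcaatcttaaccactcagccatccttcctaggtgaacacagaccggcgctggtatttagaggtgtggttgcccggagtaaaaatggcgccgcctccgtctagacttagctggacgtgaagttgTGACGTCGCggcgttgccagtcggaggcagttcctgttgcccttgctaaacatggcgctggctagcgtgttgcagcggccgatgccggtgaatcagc
Psmb6, chr11:70525107-70525406, plus strand: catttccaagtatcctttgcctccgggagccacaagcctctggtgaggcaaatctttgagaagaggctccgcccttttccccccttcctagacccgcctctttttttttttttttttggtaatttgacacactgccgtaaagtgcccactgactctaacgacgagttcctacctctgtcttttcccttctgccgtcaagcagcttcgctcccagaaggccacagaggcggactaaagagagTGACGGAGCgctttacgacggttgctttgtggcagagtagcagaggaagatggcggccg
Promoters were found for 38 of the 46 genes, in 41 windows, but not for Psmd7, Psmg2, Psmd3 and Psmb7, which fell. The antioxidant core was in 14.6% of these windows, against 12.4% of all promoters, and besides the genes shown it was in those of Psmc6, Psmd12 and Psme4. CCAAT was in 34.1% against 37.4%, and GATAA, the core bound by GATA factors, in 22.0% against 25.4%. The interferon-response core was in 5 windows, 12.2% against 3.44%, namely those of Psme1, Psmb3, Psmd4, Psmd9 and Psmg4. Both strands were searched and motifs may overlap. Of these 5 genes Psme1 rose, Psmb3, Psmd4 and Psmd9 fell and Psmg4 did not pass. A match describes the letters of a window and is no evidence of binding.

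Other genes of the ubiquitin-proteasome pathway were called in both directions, at shares near those of all tested genes. Of 37 listed genes outside the 46, 31 matched at least 1 row, giving 32 rows, of which 6 fell, 7 rose and 19 did not pass, with a median log2 fold change of -0.11, against 15.2% of all tested genes lower and 16.9% higher. Without Psmb8, Psmb9 and Psmb10, 4 of 28 rose and 6 fell. Centring on the median of tested genes gave 12 lower and 5 higher of the 32, against 22.1% of all tested genes lower and 13.8% higher.

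Among the rows with the smallest adjusted p were Psmb8 (log2 fold change 4.56, SE 0.42, adjusted p = 5.0e-05) and Psmb9, the inducible catalytic subunits. The main Psmb9 row had 229.8, 279 and 294 normalized reads in -77-/- libraries, against 14.1, 9.98 and 11.4 in wild type libraries, a log2 fold change of 4.39 (SE 0.56, adjusted p = 2.3e-05). A second row of that symbol had 59.0, 29.2 and 10.2 in -77-/- libraries, against 5.63, 15.0 and 11.4 in wild type libraries, and reads could be split between them. Zfand2a, an arsenite-induced protein that binds the 19S particle, had 1273, 1137 and 1254 normalized reads in -77-/- libraries, against 413, 399 and 251 in wild type libraries, and rose by 1.82 on the log2 scale (SE 0.21, adjusted p = 8.2e-06).

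Txnl1, a thioredoxin-like protein bound to the 19S particle, had 2344, 1784 and 1879 normalized reads in -77-/- libraries, against 4183, 3812 and 3949.8 in wild type libraries, and fell by 1.001 on the log2 scale (SE 0.12, adjusted p = 1.8e-05). Ube3c, a ubiquitin ligase that acts at the proteasome, had 1213, 1178 and 1321 in -77-/- libraries, against 2056, 2174 and 2177 in wild type libraries, and fell by 0.79 (SE 0.12, adjusted p = 1.7e-04). Neither gene overlapped between groups. The shuttle factor Ubqln4, which carries ubiquitinated proteins to the particle, fell by 0.88 on the log2 scale, whereas the shuttle factor Ubqln2 had a log2 fold change of 0.50 (adjusted p = 0.0400). The proteasome-bound deubiquitinase Usp14 fell by 0.33 (adjusted p = 0.0343) and Adrm1, a ubiquitin receptor of the 19S base, by 0.46 (adjusted p = 0.0401). Psmb10 rose by 1.198 and Nub1 by 0.49 (adjusted p = 0.0323). The calls of Ubqln2, Usp14, Adrm1 and Nub1 were each lost without at least 3 of the 6 libraries in turn, and the Ubqln2 log2 fold change was 0.30 without wild type replicate 3. Vcp, the segregase that extracts ubiquitinated proteins, had a log2 fold change of 0.06 and the activating enzyme Uba1 had -0.15, and neither passed.

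**Figure D5:**
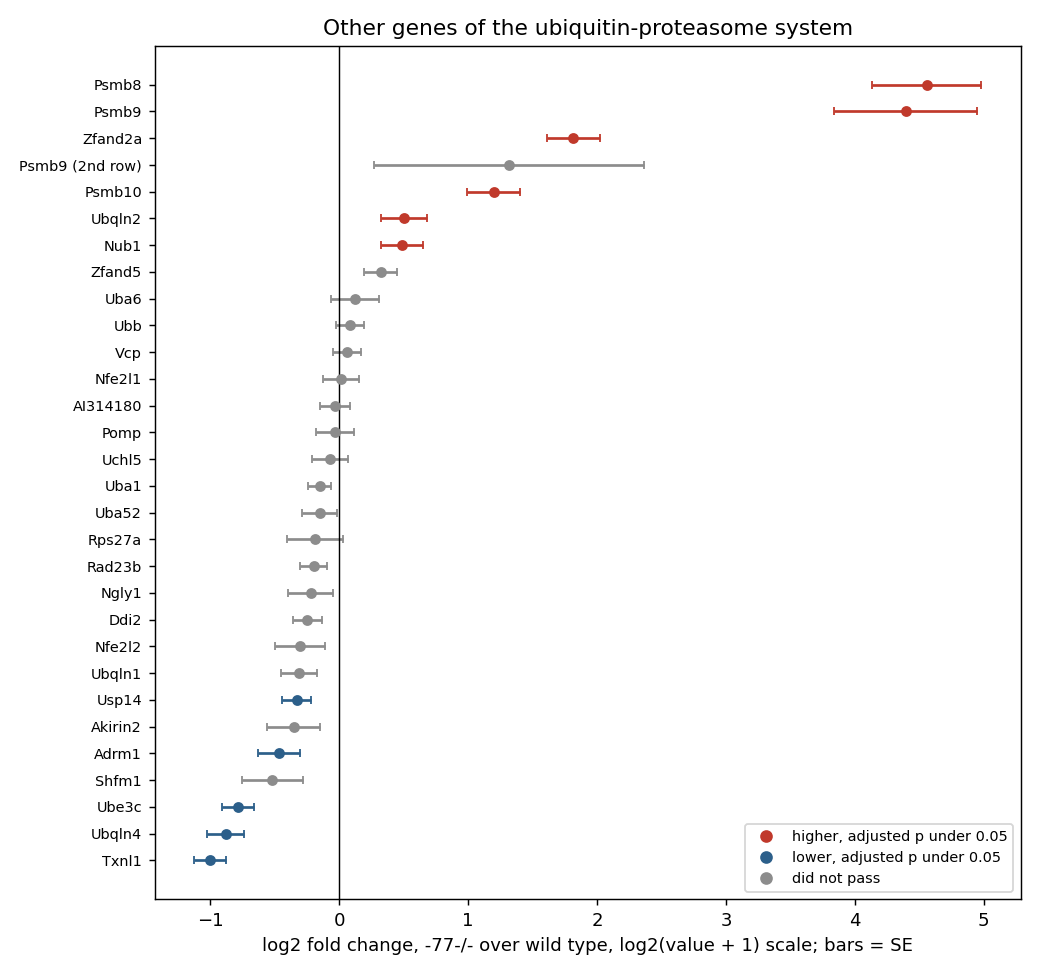
Log2 fold change (-77-/- over wild type, from log2(value + 1)) of 30 rows of other ubiquitin-proteasome genes with standard errors, coloured by the call at an adjusted p of 0.05. Psmb8 and Psmb9 reach 4.56 and 4.39, Zfand2a 1.82, and Txnl1 lies lowest at -1.001.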

How the data were processed

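RNA-seq libraries of 3 -77-/- and 3 wild type samples were analysed from 1 deposited gene table. The authors used DESeq2, RSEM 1.2.31, STAR 2.5 and Bowtie, and the mm9 build, per the submitters' processing notes. Not given in the sources used here are the gene annotation, the use of strand and which tool did which step. Library columns the authors deposited are a normalized signal, gene counts divided by 1 size factor per library (0.878 to 1.17): 100% of values were whole multiples of the value of 1 read, within 0.01 reads. The authors' log2 fold changes and mean score per gene, and their p-values, were used for comparison only. Of 19444 rows, 8 with cells moved sideways were left out. The proteasome genes and all lists were chosen with earlier results of these data known.

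Genes with a mean of at least 10 in the higher genotype (15821) were tested on log2(value + 1) with limma 3.58.1 in R 4.3.3 (trend, robust), with Benjamini-Hochberg adjustment and a threshold of 0.05. The pseudocount shrinks the change of low genes. The plan named edgeR for raw counts and limma for normalized values, so limma is the main test. Genes named were all those called among the 46, the 3 catalytic subunits, the 3 with the largest fold change, and the 6 other pathway genes with the smallest adjusted p; some results for pathway genes are not reported here. Alternatives were pseudocounts of 0.1 and 10, no filter, a filter at 50, TMM scaling, centring on the median, limma without robust, limma-voom, edgeR 4.0.16 and DESeq2 1.42.0 on recovered reads, and leaving out each library. The script was tested on simulated data. Promoters are from RefSeq (GRCm38.p6). No 2 libraries were duplicates: the lowest chi-square per degree of freedom over 15 pairs was 18.2.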

Additional observations from a re-analysis of the deposited data

How the results depend on the processing

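No paired analysis was possible because the labels give no replicate numbers. Of the 19 calls among the 46 genes, 12 passed in all 16 alternatives: Psmd7, Psmd12, Psmd3, Psmd6, Psmd4, Psmc1, Psmc2, Psmd5, Psmd9, Psmg2, Psme1 and Psme3. No call reversed. Centring on the median of tested genes moved most: 34 of the 46 were lower and 1 higher, with a median log2 fold change of -0.57 (-0.46 relative to all tested genes, as without centring). It gave as lower 5 alpha, 6 beta, 5 ATPase and 3 other base subunits, 2 chaperones of the core, 3 activators or inhibitors (1 higher), 1 tissue-restricted gene or non-subunit, and 12 other pathway genes. Over all tested genes, centring gave 22.1% lower, against 15.2% without it. At a pseudocount of 0.1 and in limma without robust, 1 beta subunit was lower, since Psmb7 no longer passed. With libraries left out in turn, 14 to 21 of the 46 were lower and 1 to 2 higher. Lower calls ran from 0 to 2 in the alpha ring, 0 to 4 in the beta ring and 1 to 2 among base subunits other than the ATPases. They ran from 1 to 2 among activators (1 to 2 higher) and 0 to 1 among tissue-restricted genes and Psmc3ip. The Psmb8 over Psmb5 difference ran from 17.4-fold to 40.3-fold. TMM scaling, a pseudocount of 10, the filter at 50, limma-voom, edgeR and DESeq2 each gave 18 lower and 2 higher, adding Psmc3. Depth limits few of the genes: Psma8, Psmb11 and Psmg4, at around 100 normalized reads or fewer, had log2 standard errors of 0.44 to 0.60, so small differences were not detectable there.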
